A study of Mus musculus with 30 samples.

Results

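The comparison set CD11b+ cells from the spleens of BALB/c mice carrying a GM-CSF tumor, titled C26-GM, against CD11b+ cells taken fresh from BALB/c bone marrow. It was defined by the array titles and holds 6 of the 30 arrays of the series, 3 for each group. CD11b+ cells of healthy BALB/c spleen, also 3 arrays, served as the second reference. All 9 arrays came from the BALB/c strain, all cells were enriched by immunomagnetic beads for CD11b, the integrin alpha chain of the myeloid receptor Mac-1, and total RNA was hybridized to Affymetrix whole-genome mouse arrays. The fresh marrow cells had no culture and no cytokine, the healthy mice no tumor, and the C26-GM mice carried the tumor. Age, sex, tumor size and the purity of the enriched cells are not given in the sources used here. The X-linked RNA Xist read 5.28 to 5.75 on the C26-GM arrays and 10.64 to 11.02 on the marrow and healthy spleen arrays. A difference in sex therefore cannot be told apart from the group. It is also not said whether the 3 arrays of a group came from separate mice or pools. The p-values below rest on the spread between arrays within groups, pooled over all 30 arrays of the series. This spread may be technical.

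The question was how far the myeloid cells that gather in the spleen of tumor-bearing mice resemble the marrow they may come from. In the marrow, granulocytes mature in a fixed order. Promyelocytes fill primary granules with Mpo, elastase and cathepsin G, myelocytes, the last dividing stage, and the metamyelocytes and band cells that follow make secondary and tertiary granule proteins, and mature neutrophils carry S100a8, S100a9 and the chemokine receptor Cxcr2. Stromal cells of the marrow make the chemokine Cxcl12, which holds cells that carry Cxcr4. GM-CSF drives the output of granulocytes and monocytes, and in mice the spleen can itself become a site where myeloid cells are made. Myeloid-derived suppressor cells, the mixed immature myeloid cells that restrain T cells in tumor-bearing hosts, are known to gather there.

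Levels are log2 RMA values, so a difference of 1 is 2-fold, and a difference is C26-GM spleen minus fresh marrow unless said otherwise. A gene was called higher or lower at a Benjamini-Hochberg adjusted p below 0.05 in limma together with at least a 2-fold difference. A gene was counted as within 2-fold where the 95% interval of its difference lay wholly inside 2-fold either way, which is a separate measure from not being called. Of 17517 autosomal genes, 930 (5.31%) were called higher in C26-GM spleen and 878 (5.01%) lower, and 13132 (75.0%) lay within 2-fold. Genes at low levels count in this share, and RMA values do not say whether they were above background. Among the 8838 genes above the median level, 5488 (62.1%) lay within 2-fold. Counts of list members below are to be read beside these shares. A further 2577 genes (14.7%) were neither called nor within 2-fold, so these arrays did not settle them either way. Centred on housekeeping genes, which shifted the median difference of all genes by -0.126, the calls were 750 higher and 1099 lower, so the share called higher was 40.6% against 51.4% as deposited, and the balance of rises and falls depends on the scaling.

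The same rule called 1325 genes (7.56%) higher and 1023 (5.84%) lower in healthy spleen than in marrow, and 411 (2.35%) higher and 673 (3.84%) lower in C26-GM spleen than in healthy spleen. The 3 comparisons share arrays, so their counts are given side by side and not as a test of one another. The median absolute difference was 0.252 between C26-GM spleen and marrow, 0.300 between healthy spleen and marrow, and 0.232 between the 2 spleens. More than 8-fold differences were found for 85, 186 and 69 genes in that order.

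The 3 C26-GM spleen arrays were less alike than the arrays within either reference, with array 3 furthest from the others. Over the autosomal genes r was 0.991 for C26-GM arrays 1 and 2, 0.976 for arrays 1 and 3 and 0.983 for arrays 2 and 3. It was 0.993 to 0.995 within marrow and 0.995 to 0.996 within healthy spleen. Array 1 correlated with the marrow mean at 0.964 and with the healthy spleen mean at 0.963, array 2 at 0.948 and 0.968, and array 3 at 0.937 and 0.962. Array 1 differed from the marrow mean by at least 2-fold in 1340 genes and from the healthy spleen mean in 1407, array 2 in 2150 and 1201, and array 3 in 2372 and 1376. By these measures array 1 stood about as near to marrow as to healthy spleen, while arrays 2 and 3 stood nearer to healthy spleen. By the median absolute difference all 3 were nearer to healthy spleen, at 0.258 from marrow and 0.227 from healthy spleen for array 1, 0.289 and 0.239 for array 2, and 0.342 and 0.332 for array 3. Array 3 also had the narrowest spread of values, with an interquartile range of 2.97 against 3.11 to 3.38 on the other 8 arrays, and the largest difference between 3' and 5' control probe sets of actin, 0.66 against 0.17 to 0.43. The part of RNA quality in the results was not tested. Without array 3, 931 genes were called higher and 722 lower, and without array 1, 1028 and 1061.

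**Figure D1:**
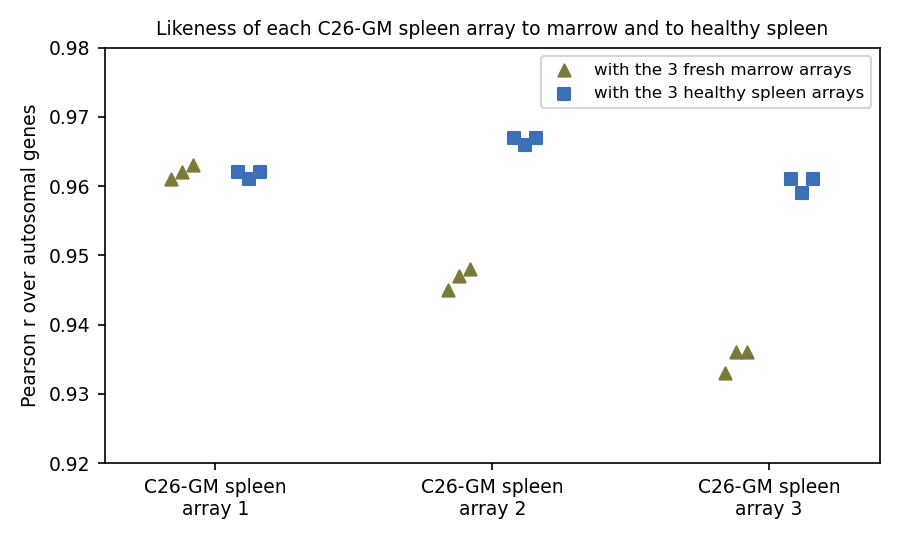
Pearson correlation over autosomal genes (vertical axis) of each C26-GM spleen array with the 3 fresh marrow arrays (triangles) and the 3 healthy spleen arrays (squares). Correlations with marrow run from 0.933 to 0.963 and with healthy spleen from 0.959 to 0.967, and for array 1 alone the 2 ranges meet.

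The CD11b and pan-myeloid markers are read beside all autosomal genes. Of these 75.0% lay within 2-fold, and 62.1% of those above the median level. Of 12 CD11b and pan-myeloid markers, limma called none in either direction, 8 lay within 2-fold and the median difference was -0.23, beside 0.01 over all genes. At an unadjusted p under 0.05, 2 were higher and 6 lower, and 1 was called higher without C26-GM array 3 and 1 lower without C26-GM array 1 or centred on housekeeping genes. Itgam, which encodes CD11b itself and was the target of the enrichment, read 11.34, 10.73 and 10.29 in C26-GM spleen and 10.65, 10.85 and 10.63 in marrow, overlapping groups with a difference of 0.08 ± 0.40 (SE). The calgranulin genes S100a8 and S100a9, which encode the main cytosolic proteins of neutrophils, were among the highest values on the arrays. S100a9 read 14.43, 14.42 and 14.00 in C26-GM spleen, 14.39, 14.51 and 14.47 in marrow and 14.21, 14.25 and 14.20 in healthy spleen. The highest value on the 9 arrays was 14.51, and whether levels this near the top of the scale were compressed was not tested. The lysozyme gene Lyz2 differed by -0.18 ± 0.11 and the myeloid transcription factor gene Spi1 by -0.46 ± 0.15, both within 2-fold. Of 11 housekeeping genes all 11 lay within 2-fold, with a median difference of 0.20.

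Granule genes of several stages were lower than in marrow. Of 11 primary granule genes 10 were called lower in C26-GM spleen than in marrow, with a median difference of -2.77 and none within 2-fold. Of 17 secondary and tertiary granule genes 6 were called lower, with a median of -0.89, and of 18 mature neutrophil genes 3 were called lower and 2 higher, with a median of -0.15. The differences between these medians were not tested. In bulk RNA, fewer cells of a type and less RNA per cell cannot be told apart, here or in any list below.

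Elane, the neutrophil elastase of primary granules, read 10.87, 9.65 and 8.95 in C26-GM spleen, 12.93, 13.30 and 12.82 in marrow and 7.31, 7.07 and 7.49 in healthy spleen. The 3 groups did not overlap, and C26-GM spleen lay between the references, 9.14-fold below marrow (-3.19 ± 0.39, adjusted p = 5.5e-07) and 2.53 ± 0.39 above healthy spleen on the log2 scale. Mpo, the myeloperoxidase, was placed the same way, with 11.44, 10.18 and 10.22 in C26-GM spleen, 13.39, 13.40 and 13.35 in marrow and 6.93, 6.50 and 7.26 in healthy spleen, a difference from marrow of -2.77 ± 0.39 (adjusted p = 4.2e-06). Cathepsin G, Ctsg, was lower than in marrow by 2.92 and the ficolin gene Fcnb by 2.86 (-2.25 without array 3). Gfi1, the repressor that directs granulocyte progenitors away from the monocyte fate, read 7.22, 5.87 and 4.84 in C26-GM spleen against 8.78 to 9.12 in marrow and 4.22 to 4.70 in healthy spleen, so that array 1 lay well above healthy spleen and array 3 close to it. Healthy spleen itself had 10 of the 11 primary granule genes called lower than marrow (median -4.75), and 8 of the 11 were called higher in C26-GM spleen than in healthy spleen (median 1.89). The mean level of the list was 9.66, 8.76 and 8.19 on C26-GM arrays 1, 2 and 3, against 11.23 to 11.36 in marrow and 6.96 to 7.40 in healthy spleen. Without C26-GM array 3, 9 of the 11 were called lower than marrow.

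Of the 17 later granule genes 2, Chil3 and the haptoglobin gene Hp, lay within 2-fold of marrow. The mean level of the list was 12.13, 11.59 and 10.46 on C26-GM arrays 1, 2 and 3 against 12.54 to 12.60 in marrow, with 8 genes lower and 0 higher at an unadjusted p under 0.05. Mmp8, the neutrophil collagenase, read 12.76, 12.34 and 11.07 in C26-GM spleen and 12.46, 12.38 and 12.62 in marrow, overlapping groups, while healthy spleen read 10.05, 9.53 and 9.75. Chil3, a chitinase-like protein of late granulocyte precursors and macrophages, lay within 2-fold of marrow (-0.20 ± 0.23) and 2.18 ± 0.23 above healthy spleen (adjusted p = 6.9e-08). Camp, the cathelicidin precursor, read 13.78, 13.43 and 12.91 against 13.94 to 13.98 in marrow, and Ltf, lactoferrin, 13.60, 12.79 and 12.45 against 13.90 to 13.96. Every C26-GM array was below every marrow array for both, yet neither was called (-0.59 ± 0.31, adjusted p = 0.21, and -0.98 ± 0.49, adjusted p = 0.17), and neither lay within 2-fold. All 17 genes of this list were called lower in healthy spleen than in marrow (median -2.38).

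Among the 6 later granule genes that were called lower, Mmp9, Olfm4, Chil1 and Pglyrp1 depended in size or call on single C26-GM arrays. Mmp9, the gelatinase of tertiary granules, read 11.35, 10.11 and 8.81 against 12.68 to 12.87 in marrow (-2.71 ± 0.42, adjusted p = 1.7e-05, or -3.34 without array 1 and -2.07 without array 3) and 10.59 to 11.11 in healthy spleen. Olfm4, a granule glycoprotein carried by a subset of neutrophils, read 10.40, 10.13 and 7.84 against 11.94 to 12.08, and its difference of -2.54 became -1.73 without array 3. Cd177, a surface glycoprotein of neutrophils, was lower by 1.67. Chil1 moved from -1.90 to -1.20 without array 3, and Pglyrp1, a peptidoglycan-binding granule protein, from -1.53 to -0.94, which ended its call. The integrin gene Itgb2l was lower by 2.26 on the probe set used, and by 0.75, not called, as the mean of its 3 probe sets.

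**Figure D2:**
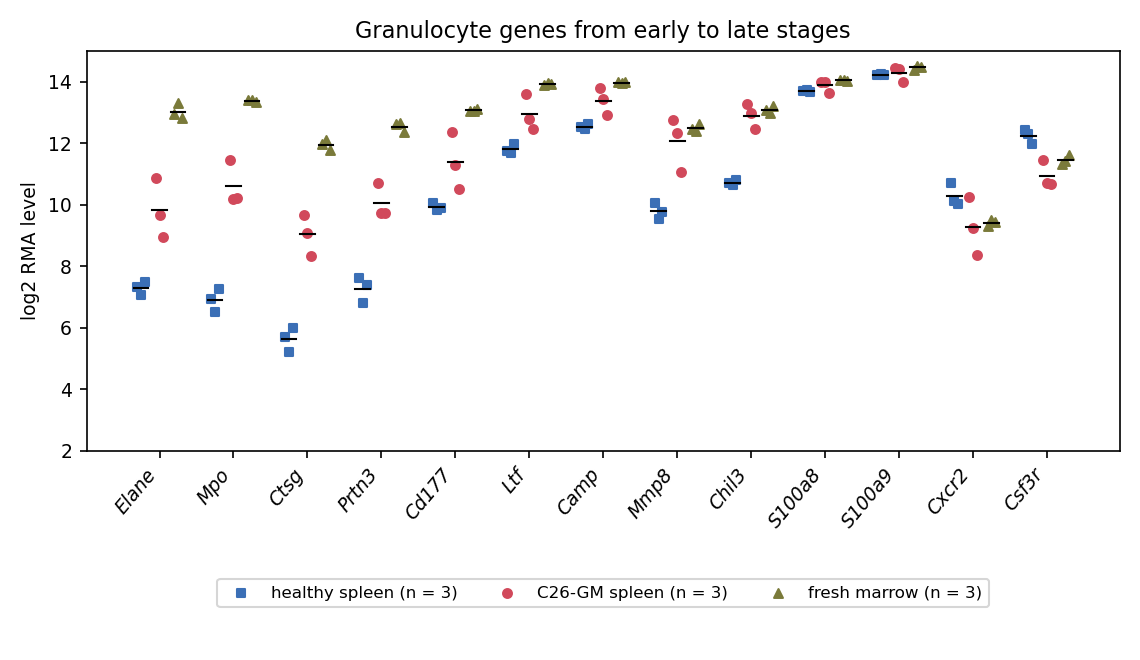
Log2 RMA level (vertical axis) of 13 granulocyte genes on each array of healthy spleen (squares), C26-GM spleen (circles) and fresh marrow (triangles), with black bars at the group means, n = 3 arrays each. Elane reads 8.95 to 10.87 in C26-GM spleen, between the references, while Mmp8 and S100a9 overlap marrow.

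Genes of circulating neutrophils gave no single direction. At an unadjusted p under 0.05 in limma, 7 of the 18 mature neutrophil genes were lower than in marrow and 3 higher. Cxcr2, which draws neutrophils out of the marrow, read 10.24, 9.23 and 8.36 in C26-GM spleen, a range that spans the marrow values of 9.30, 9.50 and 9.42. Csf3r, the G-CSF receptor, differed by -0.51 ± 0.24 and was not called. Slpi, a protease inhibitor, was lower by 1.62 ± 0.16 and the activating receptor genes Trem1 and Trem3 by 1.61 and 1.58. Il1r2, the decoy receptor of interleukin-1, went the other way: it read 12.92, 12.83 and 11.94 in C26-GM spleen, 9.32, 8.90 and 9.55 in marrow and 8.59, 8.97 and 9.01 in healthy spleen, 9.87-fold above marrow (3.30 ± 0.25, adjusted p = 1.4e-10). Both references sat close together and every C26-GM array was more than 2 log2 units above them. Cd14, the lipopolysaccharide co-receptor, was higher by 1.49 ± 0.19. Without C26-GM array 1, or centred on housekeeping genes, 5 mature neutrophil genes were called lower in place of 3.

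Of 5 measured autosomal genes of the phagocyte NADPH oxidase, the enzyme that makes superoxide, 3 were called lower than in marrow, with a median of -1.14. Ncf1, its p47 organizer subunit, read 11.80, 11.06 and 10.99 against 12.69, 12.70 and 12.78 in marrow (-1.44 ± 0.18, adjusted p = 1.0e-06). Hvcn1, the proton channel that balances its charge, was lower by 1.90 ± 0.24. Rac2, its regulatory GTPase, was lower by 1.14 and lost its call without array 3 (-0.92). Cyba, the p22 membrane subunit, lay within 2-fold (-0.50 ± 0.13). In healthy spleen 4 of the 5 were called lower than in marrow.

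Most cell division genes measured were lower than in marrow, and some were above healthy spleen. Of 27 cell cycle and DNA replication genes, 22 were called lower than in marrow with a median of -1.54, and 4 lay within 2-fold. Healthy spleen had 25 of the 27 called lower (median -2.36), and 8 were called higher in C26-GM spleen than in healthy spleen (median 0.83). Mki67, the proliferation antigen, read 10.73, 10.32 and 9.78 in C26-GM spleen, 11.42, 11.22 and 11.39 in marrow and 9.19, 8.59 and 8.62 in healthy spleen. The groups did not overlap, and the C26-GM difference was -1.06 ± 0.25 from marrow (adjusted p = 0.0017), which fell short of 2-fold without array 3 (-0.82) or with array weights (-1.0), and 1.48 ± 0.25 from healthy spleen. Plk1, a kinase of mitotic entry, read 8.27, 6.94 and 6.55 against 9.24, 9.28 and 9.24 in marrow (-1.99 ± 0.28), and Aurkb, the kinase of the chromosomal passenger complex, was lower by 2.10 ± 0.26. Replication genes were among those called, such as the helicase subunits Mcm3 (-1.18), Mcm5 (-1.06), Mcm6 (-1.63) and Mcm7 (-1.29), the ribonucleotide reductase chains Rrm1 (-1.08) and Rrm2 (-1.58) and the thymidine kinase Tk1 (-1.69). The helicase subunit Mcm4 (-0.30), the DNA clamp Pcna (-0.47) and the S phase cyclin Ccne1 (-0.42) lay within 2-fold. Array 1 was the nearest to marrow, with a list mean of 8.44 against 7.93 and 7.45 on arrays 2 and 3 and 9.24 to 9.31 in marrow. Without array 3, 16 of the 27 were called lower.

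The start sites of the genes that were lower together are shown for 2 mitotic genes, with the CCAAT box in capitals on either strand, because 17 of the 19 called cell cycle genes that have a window (89.5%) hold it, beside 41.1% of 27025 genes. Windows run from 250 bases before to 50 after a RefSeq start in GRCm38.p6 and are written in the direction of the gene. Ccnb2 lies on the minus strand at chr9:70421505-70421804 and Plk1 on the plus strand at chr7:122159185-122159484.
Ccnb2: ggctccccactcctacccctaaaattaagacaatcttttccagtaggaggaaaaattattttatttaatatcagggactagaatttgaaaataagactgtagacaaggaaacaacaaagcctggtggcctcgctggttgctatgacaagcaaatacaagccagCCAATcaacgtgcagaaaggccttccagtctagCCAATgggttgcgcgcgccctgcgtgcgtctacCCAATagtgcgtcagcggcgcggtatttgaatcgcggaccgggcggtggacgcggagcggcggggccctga
Plk1: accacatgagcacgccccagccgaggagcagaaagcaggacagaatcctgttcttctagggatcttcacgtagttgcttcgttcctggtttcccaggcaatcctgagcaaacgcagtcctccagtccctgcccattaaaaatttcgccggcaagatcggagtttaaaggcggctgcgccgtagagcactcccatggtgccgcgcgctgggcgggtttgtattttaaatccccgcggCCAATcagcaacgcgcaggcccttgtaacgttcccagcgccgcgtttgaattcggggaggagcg
Ccnb2, cyclin B2, fell below marrow by 1.82 ± 0.32 and its window holds 3 matches, while that of Plk1 holds 1. A match is a string of letters and not a measured binding site.

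For the primary granule genes the string TTGCNNAA, a part of sites bound by C/EBP factors, was searched on both strands. It was found in 4 of the 9 called genes with a window (44.4%), beside 12.2% of 27025 genes, and in 0 of 5 called secondary and tertiary granule genes. Elane, Mpo, Ctsg and Prtn3 hold none in this window. Both genes below are on the minus strand, Fcnb at chr2:28084829-28085128 with 2 matches and Ms4a3, a membrane protein of granulocyte and monocyte progenitors, at chr19:11640802-11641101 with 1, matches in capitals.
Fcnb: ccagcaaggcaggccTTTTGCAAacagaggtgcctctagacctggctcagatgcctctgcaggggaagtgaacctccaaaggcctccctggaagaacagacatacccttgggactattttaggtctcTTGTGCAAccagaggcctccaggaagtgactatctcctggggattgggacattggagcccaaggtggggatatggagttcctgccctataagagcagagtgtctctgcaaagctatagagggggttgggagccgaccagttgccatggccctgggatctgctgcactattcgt
Ms4a3: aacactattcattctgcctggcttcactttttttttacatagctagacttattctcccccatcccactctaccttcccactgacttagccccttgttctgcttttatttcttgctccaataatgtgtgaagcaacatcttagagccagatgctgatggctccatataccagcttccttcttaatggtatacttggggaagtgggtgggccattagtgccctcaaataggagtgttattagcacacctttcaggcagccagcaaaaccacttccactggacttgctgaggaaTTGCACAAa
The 2 searched strings share no letters that would make one a part of the other, and nothing is drawn here from their presence about the factors that bind them.

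Progenitor genes were lower in C26-GM spleen where they differed. Of 13 stem and progenitor genes 4 were called lower and none higher (median -0.50), or 2 lower as means of all probe sets. Myb, a transcription factor of dividing progenitors, read 7.85, 7.25 and 6.20 in C26-GM spleen and 10.15, 9.89 and 10.04 in marrow, 7.59-fold lower (-2.92 ± 0.40, adjusted p = 2.5e-06), with healthy spleen at 6.48, 6.08 and 6.21. Erg, another factor of stem and progenitor cells, read 7.89, 5.86 and 4.55 against 8.40 to 8.57 in marrow. C26-GM array 1 was close to marrow for Erg and array 3 was within the healthy spleen range of 4.50 to 5.27. Kit, the stem cell factor receptor, differed by -1.08 and lost its call without C26-GM array 3 (-0.98), without marrow array 3 (-0.87) and as the mean of 2 probe sets (-0.74). Sox4 differed by -2.96 on the probe set used but -0.52, not called, as the mean of its 8 probe sets.

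Most monocyte and macrophage genes measured were higher than in marrow. Of 18 monocyte and macrophage genes 11 were called higher and 0 lower (median 1.36), where healthy spleen had 13 called higher than marrow (median 1.98). Against healthy spleen, 5 of the 18 were called lower in C26-GM spleen and 1 higher. Csf1r, the receptor for the macrophage growth factor M-CSF, read at least 12.76 on every C26-GM spleen array and at most 11.09 on every marrow array (1.92 ± 0.12, adjusted p = 3.9e-12), with healthy spleen at 13.16, 13.19 and 13.19. Mertk, a receptor for dying cells, was higher by 2.24, the protease Ctss by 1.79, the complement chain C1qc by 1.79 and the monocyte chemokine receptor Ccr2 by 1.51. Adgre1, a surface marker of mature macrophages, stood between the references, with 9.32, 9.71 and 9.36 in C26-GM spleen against 8.02 to 8.33 in marrow and 10.66 to 10.75 in healthy spleen. Cx3cr1, the fractalkine receptor of patrolling monocytes, stood with marrow: it read 6.29, 6.31 and 6.96 in C26-GM spleen, 6.80 to 7.11 in marrow and 9.79, 9.55 and 9.55 in healthy spleen.

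Red pulp macrophages are the iron-recycling residents of the spleen, and their genes were only partly at the level of healthy spleen. Of 16 such genes 9 were called higher and 1 lower than in marrow (median 1.08), where healthy spleen had 14 called higher (median 2.58), and 8 were called lower in C26-GM than in healthy spleen. Spic, the factor that specifies these cells, read 9.17, 9.78 and 9.34 in C26-GM spleen, 7.44, 6.95 and 7.04 in marrow and 11.23, 10.99 and 11.19 in healthy spleen. It lay between the references, 4.88-fold above marrow (2.29 ± 0.21). Mrc1, the mannose receptor, was 2.79 ± 0.31 above marrow and 0.02 ± 0.31 from healthy spleen. Timd4, a phosphatidylserine receptor of resident macrophages, read 3.93, 3.91 and 4.35 in C26-GM spleen, 6.01, 5.50 and 6.54 in marrow and 8.31, 8.17 and 7.97 in healthy spleen. It was the 1 gene of the list below marrow (-1.95 ± 0.27, adjusted p = 3.0e-06).

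Genes of antigen presentation by MHC class II were higher than in marrow throughout. All 11 MHC class II presentation genes were called higher in C26-GM spleen than in marrow (median 2.79), all 11 were higher in healthy spleen too (median 3.12), and 2 of the 11 were called lower in C26-GM than in healthy spleen (median -0.23). H2-Aa, an MHC class II alpha chain, read 12.84, 12.99 and 13.07 in C26-GM spleen, 9.17, 9.58 and 9.46 in marrow and 13.16, 13.33 and 13.44 in healthy spleen. That is 11.8-fold above marrow (3.56 ± 0.26, adjusted p = 6.3e-11). Cd74, the invariant chain, was higher by 2.96 ± 0.15 and H2-DMa, which loads peptides, by 2.79 ± 0.20. Of 15 dendritic cell genes 6 were called higher than in marrow and 1 lower. Itgax, the CD11c integrin, read 10.12, 10.16 and 10.69 against 6.36, 6.18 and 6.34 (4.03 ± 0.23), with healthy spleen at 10.44 to 10.73. Cd83, a marker of activated dendritic cells and B cells, stood with marrow at 5.23, 5.86 and 5.86, where marrow read 6.11, 5.61 and 6.12 and healthy spleen 9.70, 9.96 and 10.10. The costimulator Cd86 lay between the references, 1.92 above marrow and 2.05 below healthy spleen.

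CD11b+ fractions can also hold B and NK cells. Of 12 mature B cell genes 2 were called higher than in marrow (median -0.02), Bank1 and Cr2, of which Cr2 lost its call without C26-GM array 3 (0.96) or centred on housekeeping genes (0.99), and 11 were called higher in healthy spleen (median 2.42). The mean level of the list was 5.59 to 5.79 in C26-GM spleen, 5.53 to 5.73 in marrow and 7.96 to 8.11 in healthy spleen. Cd79a, a chain of the B cell receptor, read 5.82, 5.98 and 5.92 against 6.32, 6.38 and 6.72 in marrow and lay within 2-fold. Ighm, the IgM heavy chain, was higher by 1.86 on the probe set used and by 0.52, not called, as the mean of its 11 probe sets or 0.75 without probe sets that may cross-hybridize. Of 12 NK cell genes 1 was called lower and 8 lay within 2-fold, beside 5.01% and 75.0% of all autosomal genes. Healthy spleen had 9 of the 12 called higher than marrow, beside 7.56% of all autosomal genes. Gzmb, granzyme B, read 4.71, 4.94 and 4.49 against 4.98, 5.11 and 5.19, and 6.49 to 7.16 in healthy spleen. The 1 called gene was Nkg7, which is also on the primary granule list, lower by 2.89. Of 10 T cell genes 1, Cd3d, was called lower (9.86, 9.01 and 7.61 against 11.04, 10.69 and 10.89 in marrow), whereas Cd3e read 6.33 to 6.48 against 6.34 to 6.60.

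Of 17 interferon-stimulated genes 2 were called lower than in marrow and 0 higher (median -0.32), 6 lay within 2-fold, and 6 were lower and 2 higher at an unadjusted p under 0.05, where healthy spleen had 11 called higher (median 1.57). Rtp4, a chaperone induced by interferon, read 8.83, 9.09 and 9.29 in C26-GM spleen, 9.34, 9.36 and 9.13 in marrow and 11.42, 11.39 and 11.09 in healthy spleen. The C26-GM and marrow arrays overlapped (-0.20 ± 0.23), and both groups were below every healthy spleen array. The called genes were Ifit2 (-1.39 ± 0.40, adjusted p = 0.010) and Ifit3 (-1.02 ± 0.30, adjusted p = 0.013). The call of Ifit3 was lost without marrow array 1 (-0.98), marrow array 2 (-0.95) or C26-GM array 2 (-0.90), and without C26-GM array 1 or marrow array 1 1 list gene was called higher. After quantile normalisation over the 9 arrays 4 list genes were called lower.

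Of 12 platelet and megakaryocyte genes limma called none against marrow (median -0.38, with 2 lower at an unadjusted p under 0.05). Within 2-fold lay 6, beside 75.0% of all autosomal genes, and healthy spleen had 8 called lower, beside 5.84%. The mean level of the list was 6.19, 6.60 and 7.48 on C26-GM arrays 1, 2 and 3 against 6.72 to 7.39 in marrow, so that arrays 1 and 2 lay below marrow and array 3 above. Itga2b, the platelet integrin CD41, read 7.29, 7.48 and 8.77 in C26-GM spleen, 8.37, 7.93 and 8.39 in marrow and 6.97, 6.66 and 6.68 in healthy spleen, with array 3 the highest of all 9. Without array 3, 2 of the 12 were called lower. Of 12 erythroid genes 1, the carbonic anhydrase Car1, was called lower (-1.39 ± 0.30), beside 5.01% of all autosomal genes.

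**Figure D3:**
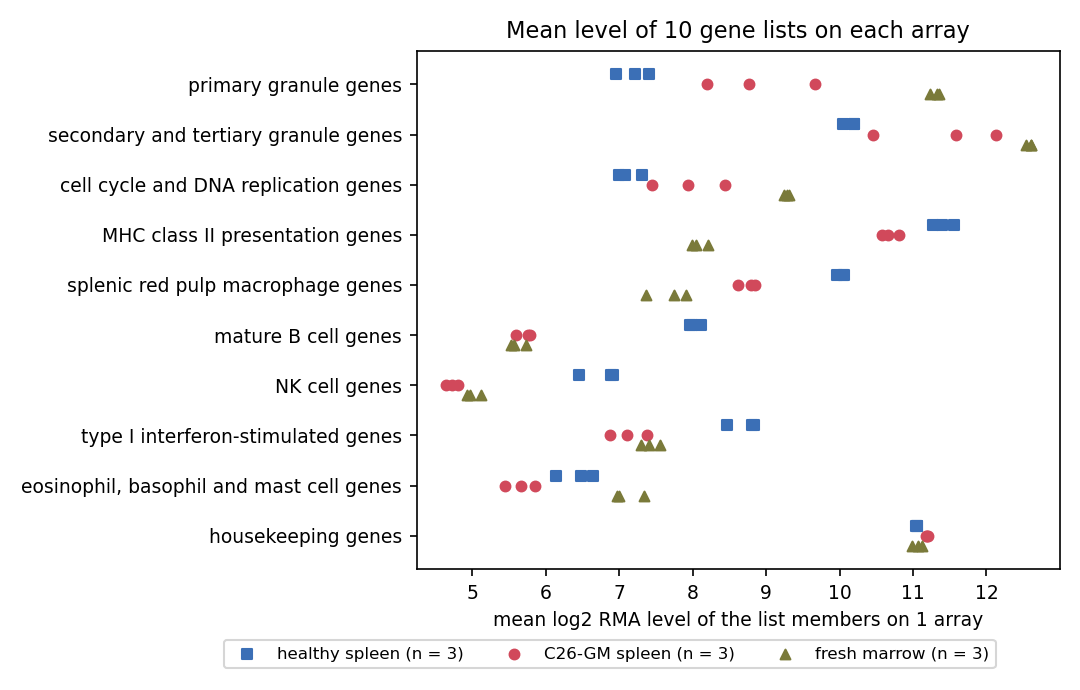
Mean log2 RMA level of the members of 10 gene lists on each array (horizontal axis), for healthy spleen (squares), C26-GM spleen (circles) and fresh marrow (triangles). Primary granule genes read 8.19 to 9.66 in C26-GM spleen, between the references, MHC class II genes lie nearer healthy spleen, and B cell genes lie with marrow.

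Several eosinophil and stromal genes were far below their marrow level. Prg2, the major basic protein of eosinophils, read 4.03, 3.46 and 3.49 in C26-GM spleen, 11.39, 10.94 and 11.59 in marrow and 8.62, 8.24 and 9.45 in healthy spleen. The difference from marrow was -7.65 ± 0.43 (adjusted p = 5.5e-13). The C26-GM values lay below the median of every array, 4.85 to 4.99, and RMA values do not say whether they were above background, so no fold is given here or for other genes with a group under that level. Epx, the eosinophil peroxidase, was lower by 4.80 ± 0.42 and Prg3 by 3.84 ± 0.25. Of 14 eosinophil, basophil and mast cell genes 6 were called lower and 1 higher. The 1 higher gene was Rnase2a, an eosinophil-associated ribonuclease, which read 11.21, 11.32 and 10.24 in C26-GM spleen, 7.82, 7.36 and 7.75 in marrow and 3.99, 4.08 and 3.88 in healthy spleen, so it moved against the other eosinophil granule genes. The mast cell genes Cpa3, Cma1 and Ms4a2 lay within 2-fold. Healthy spleen had the same count against marrow for this list, 6 lower and 1 higher.

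Of 14 stromal, bone and fibroblast genes 7 were called lower than in marrow and 1 higher (median -1.09). Cxcl12, the retention chemokine of marrow stroma, read 5.03, 5.28 and 6.44 in C26-GM spleen and 10.61, 10.22 and 10.60 in marrow, a difference of -4.90 ± 0.33 (adjusted p = 2.1e-11), with its 3 probe sets between -4.90 and 0.04 and their mean at -3.21. Collagen genes varied among the marrow arrays themselves: Col1a2 read 9.42, 10.60 and 8.63 in marrow against 5.30, 4.89 and 6.83. Dcn, decorin, was lower by 2.06 on the probe set used and by 0.95, not called, as the mean of 2. Adipoq, the fat cell hormone adiponectin, read 2.56, 2.97 and 2.79 in C26-GM spleen, 8.79, 8.30 and 8.31 in marrow and 2.57 to 2.83 in healthy spleen, so both spleens lay near the bottom of the scale. The 1 higher gene was Postn, periostin, 3.29 above marrow and as high in healthy spleen (9.65 to 9.99). Healthy spleen had the same count, 7 lower and 1 higher.

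Genes of retention and homing moved in both directions. Cxcr4, the receptor of Cxcl12, read 9.94, 9.35 and 8.18 in C26-GM spleen against 11.27, 11.12 and 11.13 in marrow (-2.02 ± 0.36, adjusted p = 1.0e-04) and 9.51 to 10.03 in healthy spleen. Of 18 adhesion, homing and retention genes 5 were called higher and 2 lower, and 10 lay within 2-fold. Over all autosomal genes these shares were 5.31%, 5.01% and 75.0%. As means of all probe sets 4 were higher and 1 lower. Icam1, the ligand of leukocyte integrins, was higher by 2.18 and Itga4, the alpha chain of VLA-4, by 1.27. Itgb1, its beta chain, was higher by 1.42 on the probe set used and by 0.70, not called, as the mean of 6. Selplg, the selectin ligand, and Cd44 lay within 2-fold.

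**Figure D4:**
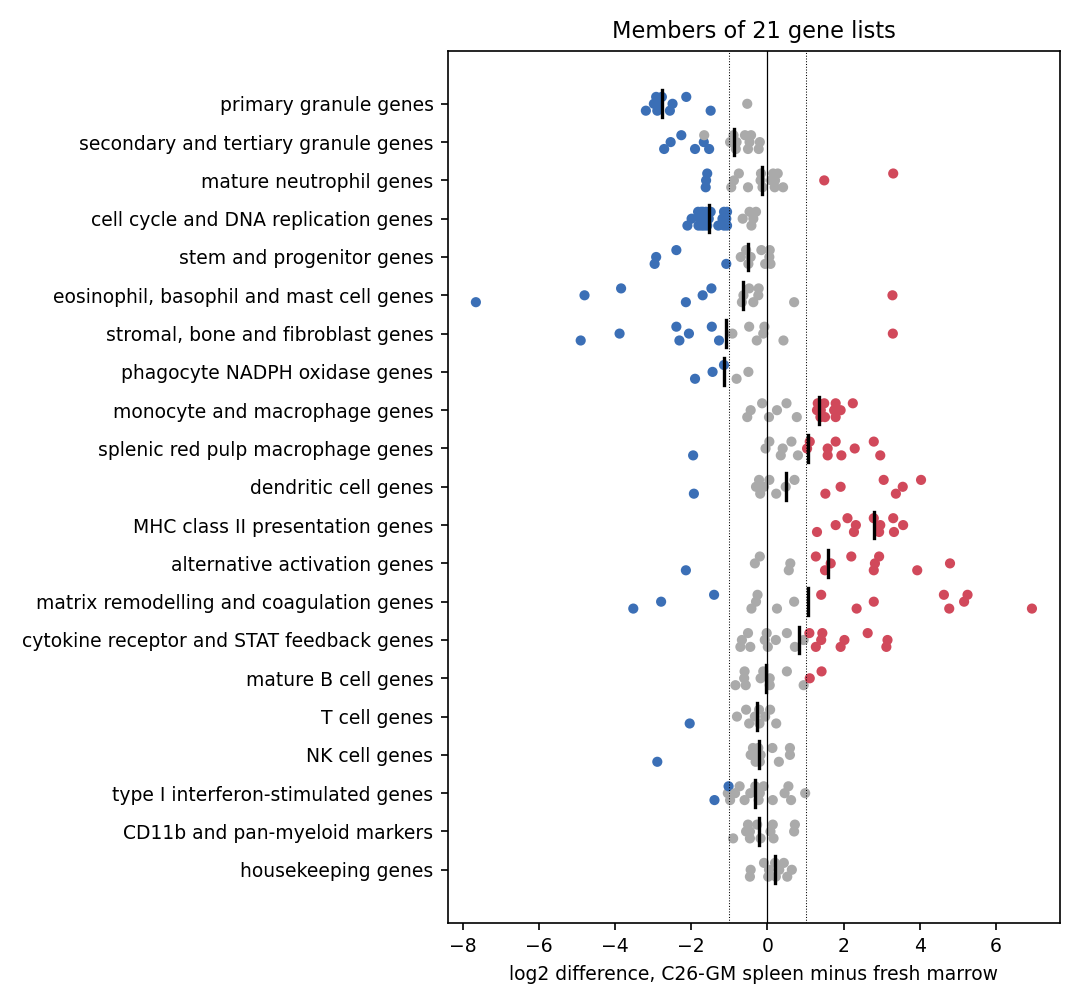
Log2 difference of each measured member (points) of 21 gene lists between C26-GM spleen and fresh marrow, with black bars at the list medians. Points called higher are red, called lower blue and not called grey, and dotted lines mark 2-fold. Primary granule genes have a median of -2.77 and MHC class II genes of 2.79.

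Some genes, such as Car4 and F7, were high in C26-GM spleen and low in both references. Several genes far above marrow came from a list of 16 matrix remodelling and coagulation genes. Of these 8 were called higher than in marrow and 3 lower (median 1.05), beside 5.31% and 5.01% of all autosomal genes. The list was chosen with earlier results of these data known, so its counts are description only. Healthy spleen had 2 of these 16 called higher than marrow and 5 lower. Car4, a membrane carbonic anhydrase, read 8.68, 9.62 and 9.35 in C26-GM spleen, 4.05, 3.71 and 3.58 in marrow and 4.25, 3.61 and 4.11 in healthy spleen (5.44 ± 0.31 above marrow, adjusted p = 8.6e-13, and 6.41 without probe sets that may cross-hybridize). Both references lay below the array medians. F7, coagulation factor VII, read 9.33, 9.75 and 10.19 against 4.65, 4.65 and 4.51 in marrow and 4.23 to 4.87 in healthy spleen (5.16 ± 0.24). The 2 references overlapped for both genes, and the C26-GM arrays lay far above. Vcan, the proteoglycan versican, was 4.77 ± 0.40 above marrow on the probe set used and 1.80 as the mean of its 8 probe sets, and Htra3, a secreted serine protease, 4.63 ± 0.29 and 2.60. Lipg, the endothelial lipase, was 4.39 ± 0.37 above marrow and 3.68 as the mean of its probe sets, and Mmp19, a matrix metalloprotease, 5.25 ± 0.51 and 4.6. Dmkn, dermokine, a secreted protein known from skin, was 4.85 ± 0.33 above marrow. For Vcan, Htra3, Lipg, Mmp19 and Dmkn only the difference from marrow is given here.

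Other leading genes were shared with healthy spleen in part. Mmp12, the macrophage elastase, read 10.36, 10.79 and 10.61 in C26-GM spleen, 3.70, 3.34 and 3.91 in marrow and 8.52, 8.60 and 8.69 in healthy spleen. It was 6.94 ± 0.19 above marrow (adjusted p = 7.5e-20), where its values lay below the array medians. Saa3, an acute-phase protein made by macrophages, read 13.03, 12.91 and 12.88 against 5.77, 6.73 and 6.47 in marrow and 8.79, 9.65 and 9.37 in healthy spleen. Adamdec1, a metalloprotease of macrophages and dendritic cells, was 6.11 above marrow and -0.13 ± 0.34 from healthy spleen, so in this gene the 2 spleens were alike. Clec4n, which encodes the fungal receptor Dectin-2, was higher by 5.65 ± 0.19. Ccl24, the chemokine eotaxin-2, was 4.79 above marrow and 1.32 above healthy spleen.

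**Figure D5:**
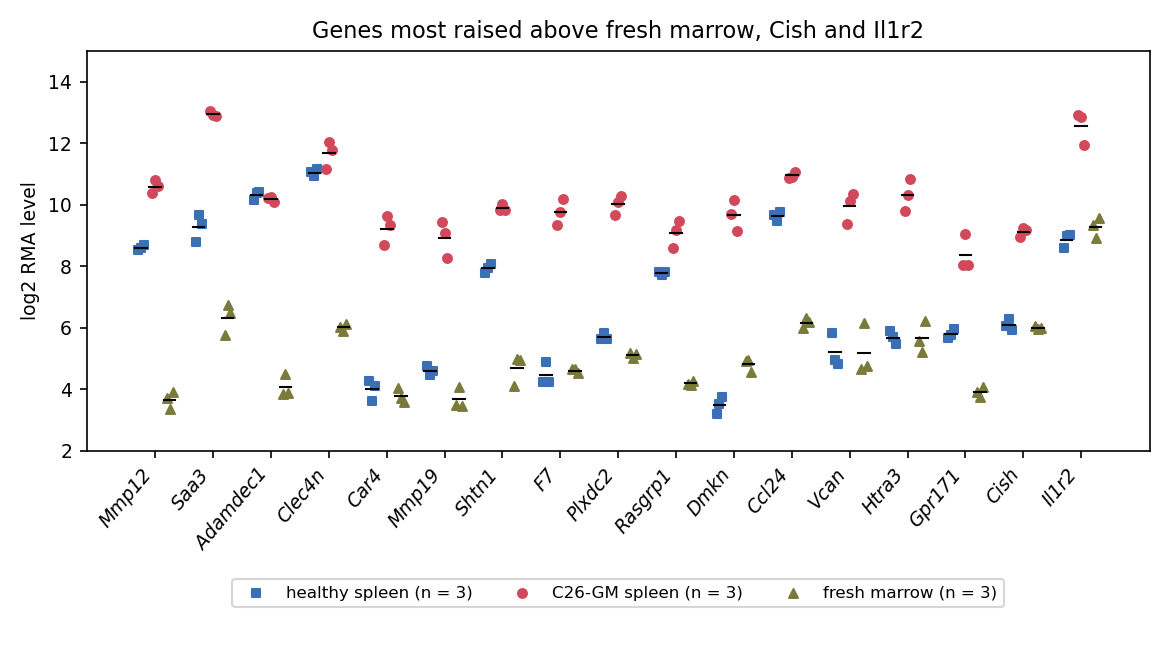
Log2 RMA level (vertical axis) of the 15 genes raised most above fresh marrow, and of Cish and Il1r2, on each array of healthy spleen (squares), C26-GM spleen (circles) and fresh marrow (triangles), with black bars at the group means. Car4, F7 and Cish are low in both references, while Adamdec1 and Clec4n are high in healthy spleen too.

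Of 20 cytokine receptor genes and feedback genes that STAT factors induce, 9 were called higher than in marrow and 0 lower (median 0.84), 6 lay within 2-fold, and 4 were lower at an unadjusted p under 0.05, where healthy spleen had 5 called higher (median 0.20). Cish, a feedback inhibitor induced by STAT5, read 8.93, 9.24 and 9.17 in C26-GM spleen, 6.06, 5.94 and 5.98 in marrow and 6.04, 6.28 and 5.93 in healthy spleen. The references overlapped and all C26-GM arrays were higher by about the same amount (3.12 ± 0.18, adjusted p = 1.2e-12). Csf2rb2, a beta chain of the interleukin-3 receptor, read 9.06, 9.34 and 9.40 against 7.18, 7.39 and 7.16 in marrow (2.02 ± 0.18), and Csf2rb, the common chain that GM-CSF uses, was higher by 0.95, short of 2-fold. These 2 genes are close copies, so their probe sets may share signal. Socs3, the feedback inhibitor of interleukin-6 signaling, was 2.63 ± 0.33 above marrow, or 1.91 without probe sets that may cross-hybridize, and 0.60 above healthy spleen, which was not called. Socs2 was higher by 3.15 on the probe set used and by 1.44 as the mean of its 6 probe sets. Il4ra, the interleukin-4 receptor chain, was higher by 1.41 ± 0.31.

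Of 20 myeloid lineage transcription factors 4 were called higher, 2 when centred on housekeeping genes, and 5 lower. Cebpb, the factor of emergency granulopoiesis, read 12.33, 12.16 and 12.05 in C26-GM spleen, 11.22, 11.09 and 11.59 in marrow and 10.57, 10.53 and 10.48 in healthy spleen. The groups did not overlap, but the difference from marrow stayed under 2-fold (0.88 ± 0.17, adjusted p = 0.00034). Cebpa lay within 2-fold (0.53 ± 0.21). Irf4, a factor of alternative macrophage activation and dendritic cells, was higher by 2.20 ± 0.25, and Klf2, a factor of leukocyte quiescence, lower by 1.83 ± 0.31.

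Alternative activation genes, those that interleukin-4 induces in macrophages, were called higher in 9 of 14 cases and lower in 1 (median 1.59), while healthy spleen had 5 higher and 3 lower (median 0.47). Ccl17, a chemokine for T cells, read 7.36, 9.45 and 7.89 in C26-GM spleen, 4.93, 5.48 and 5.49 in marrow and 4.45, 4.58 and 5.14 in healthy spleen. It was 2.93 ± 0.37 above marrow with array 2 the highest, and 2.32 above without that array. Cdh1, E-cadherin, was higher by 3.93 ± 0.47, and Egr2, a transcription factor, by 2.82 ± 0.26. Alox15, a lipoxygenase also made by eosinophils, was the 1 lower gene (-2.14 ± 0.32).

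Effector genes tied to suppression of T cells did not move as one. Of 18 such genes 3 were called higher and 3 lower, with 5 within 2-fold. Arg1, arginase 1, was low everywhere, at 4.07, 4.46 and 3.88 in C26-GM spleen, 3.74, 3.34 and 3.77 in marrow and 3.56 to 4.04 in healthy spleen, and was not called (0.52 ± 0.35, adjusted p = 0.34). Nos2, the inducible nitric oxide synthase, was also low and lay within 2-fold (0.32 ± 0.29). Cd274, which encodes the ligand PD-L1, read 7.31, 7.31 and 7.99 against 5.30, 4.89 and 5.21 in marrow (2.41 ± 0.23, adjusted p = 1.3e-08) and 7.99 to 8.14 in healthy spleen. Ptgs2, the prostaglandin synthase COX-2, read 5.45, 4.85 and 5.09 against 9.22, 8.85 and 8.43 in marrow and 7.55 to 8.37 in healthy spleen, lower than marrow by 3.70 ± 0.50, or by 2.95 as the mean of 2 probe sets. Nt5e, which encodes CD73, was lower by 2.41 on the probe set used and by 0.92, not called, as the mean of 3.

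Of 17 measured autosomal hypoxia and glycolysis genes 3 were called higher and 5 lower (median -0.46). Pfkp, a phosphofructokinase, read 9.38, 9.89 and 10.01 in C26-GM spleen against 7.97, 7.92 and 7.91 in marrow (1.83 ± 0.23), and the glucose transporter Slc2a1 was higher by 1.27. The transporter Slc2a3 was lower by 1.98 and the hexokinases Hk1 and Hk3 by 1.16 and 1.40. Ldha, a lactate dehydrogenase chain, and Aldoa, an aldolase, lay within 2-fold.

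Immediate early genes, which cells also switch on during handling, gave calls in both directions. Of 17 immediate early and stress genes 6 were called lower than in marrow and 2 higher (median -0.62), and 3 were called lower without marrow array 1. Fosb read 6.03, 5.54 and 8.30 in C26-GM spleen, 9.80, 9.60 and 9.50 in marrow and 5.98, 5.38 and 6.39 in healthy spleen. Array 3 stood apart from the other C26-GM arrays (-3.01 ± 0.66, and -3.85 without it). Fos lay within 2-fold (-0.44 ± 0.25), and Ier3 was higher by 1.97 ± 0.21. The part of handling in these values was not tested. The X-linked RNA Xist, left out of all counts, read 5.28 to 5.75 on the C26-GM arrays, 10.64 to 10.91 in marrow and 10.84 to 11.02 in healthy spleen, so a difference in sex cannot be told apart from the group in any autosomal gene.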

How the data were processed

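The authors deposited log2 expression values that were made with RMA, per the submitters' processing notes; the version of RMA is not stated there. RMA brings the probe values of arrays normalised together to one distribution, so a shift of all genes between groups can be missed. The deposited values still differed in spread, with array interquartile ranges of 2.54 to 3.47 over the series. Of 45101 probe sets, 34958 had 1 symbol, and a gene with several was read from the one that was highest on average across the series. Of 18194 genes, 627 of the X or Y chromosome and 50 with no chromosome in the RefSeq GRCm38.p6 table were left out of all counts. All 30 arrays in 10 groups entered 1 limma fit (limma 3.58.1, R 4.3.3, figures with Python 3.11.15), in which every group shares a gene's estimated spread, so that of C26-GM spleen can be understated. Adjusted p-values are Benjamini-Hochberg over all 18194 genes, the 95% intervals are not adjusted over genes, and the number of arrays limits the precision. The fit was tested on simulated data with the same spread in every group, so this could not test a wider spread in C26-GM spleen.

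Named genes were the 15 largest rises and falls among called genes with non-overlapping arrays, passing over predicted transcripts, a panel of 24 genes, up to 6 called members of each of 36 lists, and up to 3 of the highest members within 2-fold. The members and lists were chosen with earlier results of these data known. Lists are described by counts and medians and were not tested. Some list genes, such as Ly6g and Cebpe, had no probe set with 1 symbol. Alternatives varied the scaling, the arrays in the fit, the probe set rule, the filter and the thresholds.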

Additional observations from a re-analysis of the deposited data

How the results depend on the processing

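The alternatives were centring on housekeeping genes, quantile normalisation again over 9 arrays, fits on only 6 or 9 arrays, array weights, a filter on low values, other probe set rules, a trended and robust prior, no minimum fold change, a stricter adjusted p of 0.01, adjustment over autosomal genes only, keeping genes with no chromosome, a replicate block, leaving out each array and, chosen after seeing the data, leaving out the cultured marrow arrays. Leaving out 1 of the 6 arrays gave 837 to 1028 genes higher and 722 to 1061 lower than in marrow. With no minimum fold change 2137 were higher and 2006 lower, 5120 were called between healthy spleen and marrow and 2551 between the 2 spleens. With the filter on low values 8251 lay within 2-fold. The mean of all probe sets gave 718 and 726, sharing 1338 (74.0%) of the 1808 calls. With the replicate block the calls were 926 and 876. Arrays of the same number did not deviate together (r = 0.093, -0.043 and -0.096), so the numbers were not taken as pairs. Of 154 called named genes, 132 kept direction and call under all 21 settings, and none of the 154 turned direction. Most of these genes were picked for large differences, so this share does not stand for all 1808 calls. Depth is unknown on arrays, and the 3 arrays a group limit what small differences can be seen.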

Other observations

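Further lists are given by their counts against marrow, beside 5.31% of all autosomal genes called higher and 5.01% lower. Of 10 patrolling monocyte genes 3 were called higher and 3 lower, and healthy spleen had 6 higher. Of 10 plasma cell genes 4 were called higher, among them Xbp1, a factor of the secretory pathway, which read 12.02, 12.12 and 12.09 in C26-GM spleen against 10.60, 10.23 and 10.51 in marrow, while the plasma cell surface marker Sdc1 lay within 2-fold. Of 12 marrow pro-B and pre-B cell genes 1 was called higher and 2 lower. Of 10 endothelial genes 1 was called higher and 1 lower, and of 11 epithelial genes 1 lower.

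Of 13 lipid handling genes 6 were called higher and 2 lower. Cd36, a fatty acid receptor, was higher by 2.96, or 2.07 as the mean of its probe sets, and Fabp4, a fatty acid carrier, lower by 3.50, or -2.39 by that mean. Of 16 cholesterol and fatty acid synthesis genes 2 were called higher, and none when centred on housekeeping genes or at adjusted p below 0.01. Of 20 inflammatory cytokine and chemokine genes 4 were called higher and 4 lower. Il18 was higher by 2.63 and the chemokine gene Ccl9 by 2.20, whereas Ccl3 was lower by 2.40 and the cytokine oncostatin M, Osm, by 1.68.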
